A study of Mus musculus with 12 samples.

Results

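The hypoxia response and glycolysis set described here holds 32 mouse genes. It joins the oxygen-sensing machinery, known targets of the hypoxia-inducible factors (HIF), the glucose and lactate carriers and the enzymes that turn glucose into lactate. The 32 symbols were matched to Ensembl identifiers in the deposited colon table, where they took 33 of 54532 rows, because 2 identifiers carry the symbol Aldoa. All 32 genes passed the filter on low values and were among the 14179 genes tested. The second Aldoa row (ENSMUSG00000114515) lay between 0.0816 and 1.31 FPKM and was not tested.

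RNA was taken from colons of WT C57BL/6J mice in 4 groups of 3 samples. The groups were HFD+2% DSS, CD+2% DSS, HFD and CD, and all carried the same genotype and strain. HFD is a high-fat diet, the labels do not spell out CD, and DSS is dextran sulfate sodium, a polysaccharide that injures the colonic epithelium of rodents and provokes colitis. Ages, the duration of diet and DSS, and whether the samples of a group are separate animals are not given in the labels, so the p-values measure the spread between these samples. All 9 colon epithelial markers were above 0 in every library, with summed levels of 7407 to 11273 FPKM in HFD+2% DSS colons, 8788 to 17845 FPKM in CD+2% DSS colons, 6793 to 19707 FPKM in HFD colons and 5564 to 8741 FPKM in CD colons. The range of these sums came largely from Car1, which stood at 1139 to 14081 FPKM and was highest in HFD replicate 3. Epcam stood at 599 to 1195 FPKM, so the sums do not measure the amount of epithelium. Libraries held 14700000 to 17900000 fragments on genes. FPKM is the number of fragments scaled to gene length and to a size set for each library, so levels can be set side by side between genes. In RNA from whole tissue, fewer cells of a type and less RNA per cell cannot be told apart.

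In cells with ample oxygen, prolyl hydroxylases of the EGLN family mark HIF-alpha subunits, the VHL ubiquitin ligase binds the marked protein and it is degraded. When oxygen falls, HIF-alpha is stabilised, pairs with ARNT and binds a short DNA element at genes for glucose uptake, glycolysis, lactate export, vessel growth and the control of mitochondria. The colonic epithelium borders a nearly oxygen-free lumen, and HIF signalling there is known for its part in barrier function. Because HIF-alpha is controlled mainly as a protein, its mRNA level does not report its activity.

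The set spanned a wide range of levels. By mean FPKM over the 12 libraries, 6 members stood at 100 or more and 11 under 10. The most abundant were Ldha, which makes lactate from pyruvate, at 350 FPKM, and the aldolase gene Aldoa at 316 FPKM. They were followed by Tpi1 at 197 FPKM, and by Pgk1 at 192, Pkm at 178 and Eno1 at 121 FPKM, genes for enzymes of the lower part of glycolysis. At the other end were the lactate exporter gene Slc16a3 at 3.17 FPKM and P4ha2, a collagen prolyl hydroxylase subunit, at 1.52 FPKM. Members also differed in how steady they were. Across all 12 libraries the highest value of Vhl was 1.20 times its lowest and that of Egln1 1.29 times, whereas the ratio was 12.1 for Slc16a3, 9.56 for Hif1a and 9.45 for Pfkfb3, whose enzyme raises the activator of phosphofructokinase. Several glycolytic enzyme genes have processed copies in the mouse genome, and how the authors' counting treated reads shared with copies is not given in the sources used here. Levels of those genes are therefore uncertain. Gapdh, a glycolytic gene outside the set, was listed at 0.962 to 11.2 FPKM, far below its neighbours in the pathway, and the cause was not tested.

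The main comparison asked how DSS changed these genes. Averaged over both diets, 4 of the 32 members rose with DSS and none fell. The 4 were Slc16a3, Egln3, Pfkp and Eno1. Calls required an adjusted p (Benjamini-Hochberg, across all genes tested) below 0.05 from limma on log2(FPKM + 1), a scale on which the change of weakly expressed genes is understated. Over all 14179 genes, 1.87% were called higher, 0.875% lower and 2.74% in either direction. Log2 fold changes were above 0 for 29 of the 32 members, against 50.9% of all genes, and the members' median log2 fold change was 0.37, against 0.0075 for all genes. At an unadjusted p under 0.05, 16 members were higher and 0 lower, where 13% of all genes were higher and 10.5% lower. The 6 DSS libraries lay wholly above the 6 others for 3 members, Slc16a3, Egln3 and Pfkp (2.17% of all genes), and wholly below them for 0 (1.29% of all genes). The call of Slc16a3 held with any library left out, but it was the only member called without HFD+2% DSS replicate 1, HFD replicate 2, CD replicate 1 or CD replicate 2. Pfkp was called without each other library, Egln3 was lost also without CD+2% DSS replicate 3, HFD replicate 1 or HFD replicate 3, and Eno1 was called only without HFD replicate 3.

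Slc16a3 (ENSMUSG00000025161, mm10 chr11:120948480-120960868) encodes MCT4, the carrier through which glycolytic cells release lactate. It stood at 3.75, 4.19 and 2.01 FPKM in HFD+2% DSS colons and 3.36, 7.45 and 9.18 FPKM in CD+2% DSS colons, against 1.43, 1.04 and 0.760 FPKM in HFD colons and 1.67, 1.52 and 1.68 FPKM in CD colons. All 6 DSS libraries lay above all 6 others, with the highest values in CD+2% DSS replicates 2 and 3. The log2 fold change was 1.24 ± 0.21 (SE; limma adjusted p = 0.0137), the largest among the members. Slc2a1, the gene for the glucose importer GLUT1, had a log2 fold change of 0.53 ± 0.17 and was not called (limma adjusted p = 0.103). Of its 6 DSS libraries, 5 exceeded the highest library without DSS, and HFD+2% DSS replicate 3, at 26.8 FPKM, did not.

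Egln3 (ENSMUSG00000035105, mm10 chr12:54178981-54203860) encodes PHD3, one of the oxygen-dependent hydroxylases and itself a target of HIF. Its levels were 38.6, 28.3 and 27.6 FPKM in HFD+2% DSS colons and 20.6, 46.7 and 31.3 FPKM in CD+2% DSS colons, against 16.7, 15.3 and 13.5 FPKM in HFD colons and 15.2, 18.5 and 20.4 FPKM in CD colons. The DSS libraries did not overlap the others, although CD+2% DSS replicate 1 at 20.6 FPKM lay next to CD replicate 3 at 20.4 FPKM. The log2 fold change was 0.88 ± 0.18 (limma adjusted p = 0.0324). No other member of the sensing group was called. Egln1, the hydroxylase that sets HIF levels in most normoxic cells, had a log2 fold change of 0.08 ± 0.09, Vhl one of -0.02 ± 0.08 and Epas1, the gene for HIF-2alpha, one of 0.19 ± 0.12.

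Hif1a was the most scattered of the sensing genes. It stood at 73.0, 24.0 and 17.0 FPKM in HFD+2% DSS colons and 40.4, 14.5 and 31.6 FPKM in CD+2% DSS colons, against 7.63, 13.6 and 23.8 FPKM in HFD colons and 30.4, 39.8 and 17.9 FPKM in CD colons. The groups overlapped, and the spread inside HFD+2% DSS colons was wider than any difference between group means. The log2 fold change with DSS was 0.53 ± 0.40 (limma adjusted p = 0.44).

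Among the 13 glycolytic enzyme genes, 12 had a log2 fold change above 0 (50.9% of all genes) and 2 were called higher (1.87% of all genes). At an unadjusted p under 0.05, 10 were higher (13% of all genes). Their median log2 fold change was 0.44. Pfkp (ENSMUSG00000021196, mm10 chr13:6579768-6648777) encodes a phosphofructokinase subunit at the committed step of glycolysis. It stood at 22.8, 21.2 and 17.7 FPKM in HFD+2% DSS colons and 21.9, 30.5 and 22.5 FPKM in CD+2% DSS colons, against 16.8, 14.3 and 16.1 FPKM in HFD colons and 13.7, 13.7 and 15.0 FPKM in CD colons. All DSS libraries were above all others, and the log2 fold change was 0.56 ± 0.11 (limma adjusted p = 0.0263). Eno1 (ENSMUSG00000063524, mm10 chr4:150236721-150248879) encodes the common enolase. It stood at 155, 119 and 120 FPKM in HFD+2% DSS colons and 150, 171 and 154 FPKM in CD+2% DSS colons, against 87.6, 81.7 and 121 FPKM in HFD colons and 86.0, 105 and 95.6 FPKM in CD colons. Its DSS libraries overlapped the others through HFD replicate 3 only, and its log2 fold change was 0.59 ± 0.13 (limma adjusted p = 0.0424).

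Pkm, the gene for the pyruvate kinase of most tissues, came next without being called. It stood at 233, 180 and 188 FPKM in HFD+2% DSS colons and 220, 220 and 212 FPKM in CD+2% DSS colons, against 146, 117 and 181 FPKM in HFD colons and 131, 167 and 137 FPKM in CD colons. The overlap came from HFD+2% DSS replicate 2 and HFD replicate 3, and the log2 fold change was 0.52 ± 0.14 (limma adjusted p = 0.0667). Hk2, the inducible hexokinase that traps glucose in the cell, had 141, 63.3 and 37.5 FPKM in HFD+2% DSS colons and 71.5, 78.6 and 65.0 FPKM in CD+2% DSS colons, against 23.4, 30.1 and 37.0 FPKM in HFD colons and 42.7, 48.8 and 32.1 FPKM in CD colons. HFD+2% DSS replicate 1 was the highest library and replicate 3 of that group lay inside the range of libraries without DSS. The log2 fold change was 1.00 ± 0.27 (limma adjusted p = 0.0696). The log2 fold changes of Aldoa, Pfkl, Ldha, Gpi1, Hk1, Tpi1, Pgk1 and Pgam1 lay between 0.19 and 0.51 and were not called, and that of Pfkm, the muscle-type phosphofructokinase, was -0.11 ± 0.22.

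**Figure D1:**
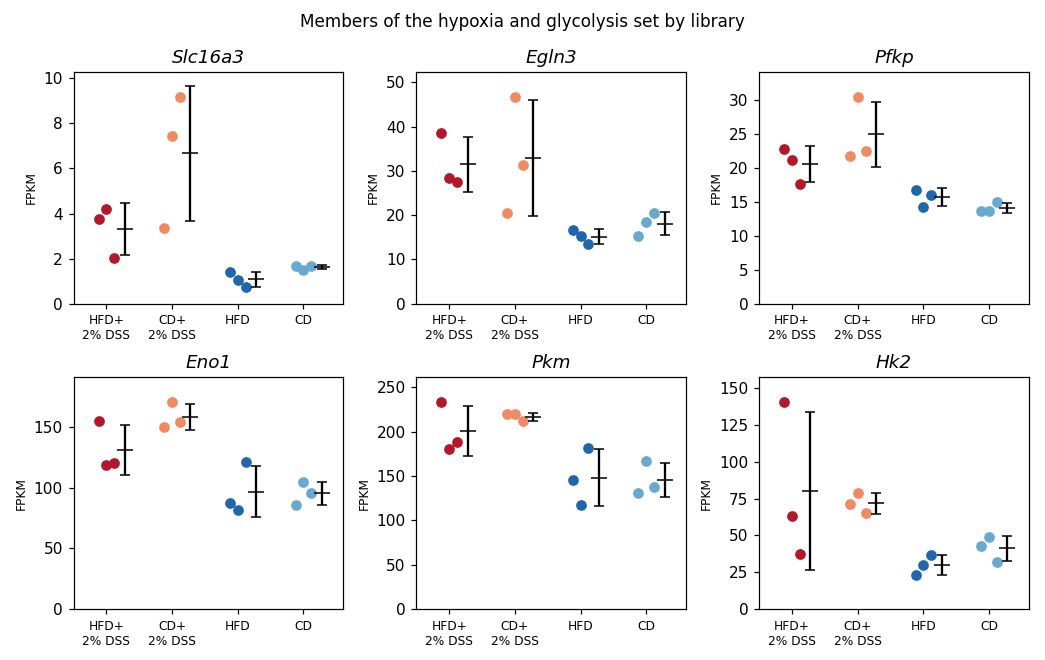
FPKM (vertical axes, starting at 0) of Slc16a3, Egln3, Pfkp, Eno1, Pkm and Hk2 in the 3 libraries of each group (points), with the group mean and SD to the right of the points. The DSS libraries of Slc16a3, Egln3 and Pfkp lie above every library without DSS, whereas those of Eno1, Pkm and Hk2 overlap them.

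Added up within a library, the 13 enzyme genes reached 1799 ± 167 FPKM in HFD+2% DSS colons and 2018 ± 283 FPKM in CD+2% DSS colons, against 1379 ± 280 FPKM in HFD colons and 1401 ± 73.3 FPKM in CD colons (SD, n = 3 each). The HFD range of 1146 to 1689 FPKM overlapped the HFD+2% DSS range of 1661 to 1984 FPKM through HFD replicate 3. The CD+2% DSS range of 1847 to 2344 FPKM and the CD range of 1334 to 1479 FPKM did not overlap.

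The 10 HIF target genes outside glycolysis all had log2 fold changes above 0 (50.9% of all genes), with a median log2 fold change of 0.29. None was called by limma (1.87% of all genes called higher), and 2 were higher at an unadjusted p under 0.05 (13% of all genes). Those 2 were Ddit4, an inhibitor of mTORC1, with 0.89 ± 0.24 (limma adjusted p = 0.0705), and Adm, the gene for the vasodilator peptide adrenomedullin, with 0.69 ± 0.27 (limma adjusted p = 0.169). Vegfa, the angiogenic growth factor, had a log2 fold change of 0.14 ± 0.18. Bnip3, a mitophagy receptor, had one of 0.30 ± 0.23. Pdk1, which restrains the oxidation of pyruvate in the mitochondria, had one of 0.25 ± 0.14. Ero1l, P4ha1 and P4ha2, which serve protein folding and collagen hydroxylation in the endoplasmic reticulum, had log2 fold changes of 0.26 ± 0.20, 0.28 ± 0.14 and 0.15 ± 0.18. Ankrd37 had one of 0.39 ± 0.38 and its highest value, 17.9 FPKM, in CD+2% DSS replicate 2. Of the pair of bifunctional PFKFB enzymes, Pfkfb3 had 0.68 ± 0.27 (limma adjusted p = 0.166) and Pfkfb4 had -0.04 ± 0.14.

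**Figure D2:**
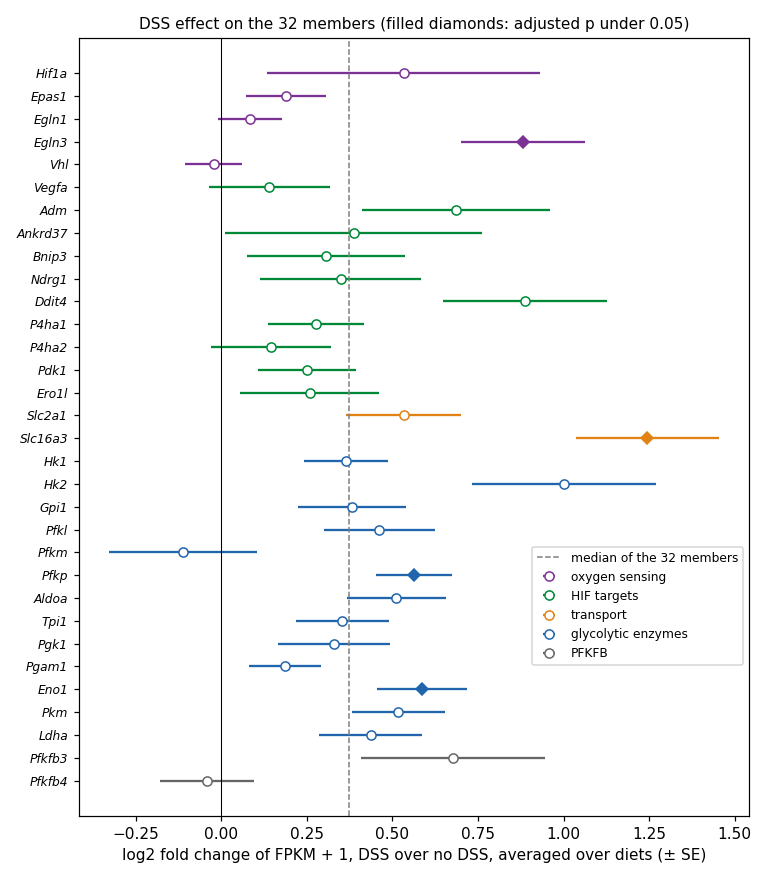
Log2 fold change of FPKM + 1 with DSS averaged over both diets (horizontal axis, ± SE) for each of the 32 members, coloured by role, with a dashed line at the members' median of 0.37. Filled diamonds mark Slc16a3, Egln3, Pfkp and Eno1, the 4 called members, and 29 of the 32 points lie right of 0.

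The promoters of the called genes are shown because they hold the core of the element that HIF binds, ACGTG or GCGTG. Sequences are from RefSeq for GRCm38.p6, run 5′ to 3′ on the gene's strand, and have the core in capitals, as ACGTG or GCGTG or as the reverse complements CACGT and CACGC. The stretches lie within the window from 250 bases before to 50 bases after a RefSeq start. They are chr11:120949030-120949059 (+) for Slc16a3, chr12:54204086-54204115 (-) for Egln3, chr13:6648781-6648921 (-) for Pfkp and chr4:150236458-150236508 (+) for Eno1. The Slc16a3 stretch overlaps an annotated exon and untranslated region, and its RefSeq start lies 587 bases inside the GENCODE gene. Pfkp and Eno1 held GCGTG only, the core also found for 54.7% of the other tested genes with a window.
Slc16a3: ggcagcggtgACGTGcgcgggggACGTGcc
Egln3: tgtgcatctcagACGTGagatccaggtttt
Pfkp: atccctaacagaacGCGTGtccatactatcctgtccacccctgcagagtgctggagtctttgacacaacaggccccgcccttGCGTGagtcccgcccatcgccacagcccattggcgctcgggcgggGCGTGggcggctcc
Eno1: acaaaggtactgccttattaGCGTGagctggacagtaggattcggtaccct

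Ldha, Hk2 and Pgk1, which held more than 1 core each, and Slc2a1, which pairs with Slc16a3 as a carrier, are shown for comparison. The Slc2a1 window also held 1 GCGTG, outside the stretch shown. None of these genes was called, and the Slc2a1 stretch overlaps an annotated exon and untranslated region. The RefSeq start used for Ldha lies 4329 bases inside the GENCODE gene. The stretches are chr7:46845644-46845784 (+), chr6:82774663-82774694 (-), chr6:82774489-82774520 (-), chrX:106186935-106186988 (+) and chr4:119108697-119108726 (+).
Ldha: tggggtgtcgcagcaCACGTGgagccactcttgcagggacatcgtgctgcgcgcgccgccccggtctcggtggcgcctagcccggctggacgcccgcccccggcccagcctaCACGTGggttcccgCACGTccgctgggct
Hk2, distal: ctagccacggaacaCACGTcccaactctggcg
Hk2, proximal: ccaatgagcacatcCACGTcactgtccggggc
Pgk1: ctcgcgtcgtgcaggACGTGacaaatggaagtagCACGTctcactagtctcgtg
Slc2a1: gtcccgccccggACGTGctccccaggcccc

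RefSeq windows were matched for 30 of the 32 members. ACGTG on either strand was present for 21 of the 30 (70.0%), against 21.8% of 27025 genes with a window and 28.7% of the 9984 other tested genes with one. GCGTG on either strand was present for 20 members (66.7%), against 35.2% of all genes and 54.7% of the other tested genes. Either core was found for 27 of the 30 members (90.0%), against 46.7% of all genes and 66.4% of the other tested genes. The palindrome CACGTG, as in Ldha, counts as ACGTG on both strands. Vhl, Gpi1 and Tpi1 held neither core in these windows. The set was made of known hypoxia genes, so these shares describe the list and say nothing of which factor acted in these colons. Epas1 and Ndrg1 had no window.

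Within each diet, 0 members were called by limma, with 3 libraries a group. Under CD, 28 of 32 members had a log2 fold change above 0 (51.5% of all genes), the median log2 fold change was 0.49, and 13 members were higher and 0 lower at an unadjusted p under 0.05 (8.67% of all genes higher, 6.49% lower). The CD+2% DSS libraries lay wholly above the CD libraries for 17 members, against 13.7% of all genes, and wholly below for 0, against 10.4%. The smallest adjusted p-values were those of Slc16a3, with a log2 fold change of 1.46 ± 0.30 (limma adjusted p = 0.0831), and Pfkp, with 0.76 ± 0.16 (limma adjusted p = 0.0851). Slc16a3 was called without CD+2% DSS replicate 1. Of all genes tested, 0.0846% were called in this comparison, 0.0705% higher and 0.0141% lower. In the same comparison 8 of 9 colon epithelial markers (median log2 fold change 0.45) and 5 of 5 T and NK cell markers (median 1.04) were above 0, and 0 of 6 smooth muscle markers were (median -0.54), with 0 called. With the smooth muscle level as a covariate 25 members were above 0, with a median of 0.41. The smooth muscle sum averaged 852 FPKM in CD+2% DSS colons and 1212 FPKM in CD colons. Its part therefore cannot be told apart from that of DSS. The part of the epithelial and T and NK cell markers was not tested.

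Under HFD, 28 members again had a log2 fold change above 0 (50.9% of all genes), the median was 0.30, and 7 were higher and 0 lower at an unadjusted p under 0.05 (7.34% of all genes higher, 6.23% lower). The HFD+2% DSS libraries lay wholly above the HFD libraries for 6 members, against 8.82% of all genes, and wholly below for 0, against 7.6%. The 6 were Egln1, Egln3, Slc16a3, Hk1, Hk2 and Pfkp. Egln3 had a log2 fold change of 0.99 ± 0.26 (limma adjusted p = 0.147), Slc16a3 1.03 ± 0.30 (limma adjusted p = 0.181) and Hk2 1.20 ± 0.38 (limma adjusted p = 0.215). Without HFD+2% DSS replicate 1 the value for Hk2 was 0.70, and without HFD replicate 2 the members' median was 0.20. Under HFD 6 of 9 colon epithelial markers (median log2 fold change 0.12), 6 of 6 smooth muscle markers (median 0.39) and 0 of 5 T and NK cell markers (median -0.42) were above 0. With the smooth muscle level as a covariate 28 members were above 0, with a median of 0.42. The smooth muscle sum averaged 1690 FPKM in HFD+2% DSS colons and 1223 FPKM in HFD colons. Its part therefore cannot be told apart from that of DSS. Over all genes, 0.339% were called, 0.247% higher and 0.0917% lower. The comparisons under CD and under HFD share no library, but both use the same estimate of spread.

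**Figure D3:**
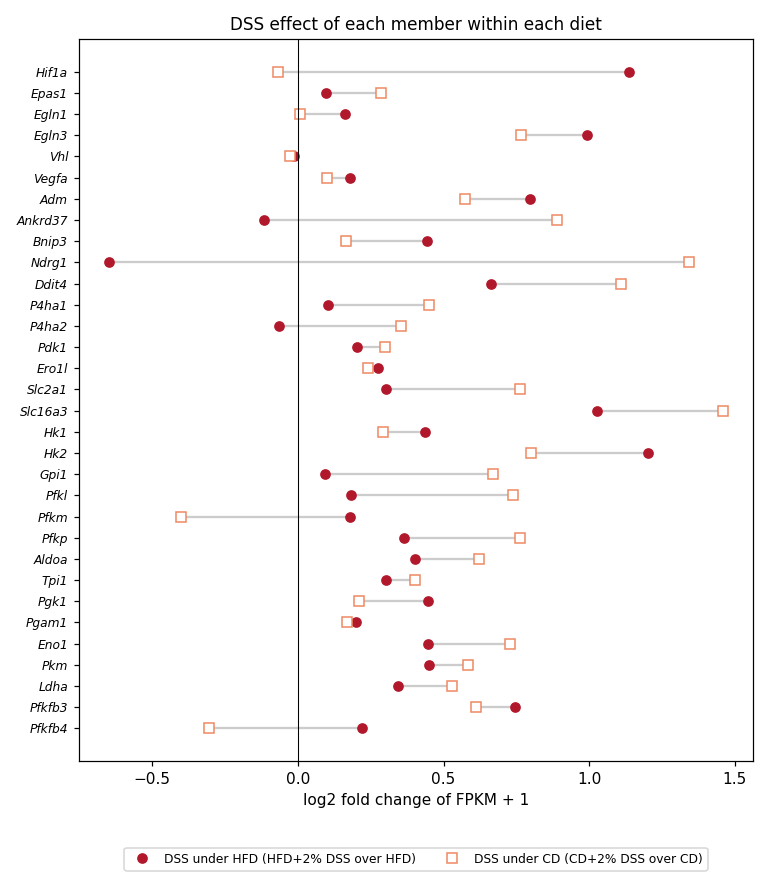
Log2 fold change of FPKM + 1 with DSS (horizontal axis) for each member within HFD (filled circles) and within CD (open squares). Both points of most members lie right of 0, and Ndrg1 shows the widest gap, at -0.65 under HFD and 1.34 under CD.

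Whether the DSS effect itself depended on diet was tested as an interaction, the log2 fold change under HFD minus that under CD. No member was called by limma (0% of all genes called), and 1, Ndrg1, was lower at an unadjusted p under 0.05, where 2.73% of all genes were lower and 2.69% higher. The members' signs were split, with 15 above 0 and 17 below (49% of all genes above 0). The split changed when single libraries were left out or the smooth muscle level was added as a covariate. Without HFD+2% DSS replicate 1, 8 members were above 0 (median -0.22), and with the smooth muscle covariate 21 were (median 0.056). The median was -0.097 without either change. The smooth muscle level differed between the groups, so its part cannot be told apart from that of diet and DSS. After Ndrg1, the smallest p-values were those of Pfkfb4, with an interaction of 0.52 ± 0.27 (limma adjusted p = 0.982), and Gpi1, the phosphoglucose isomerase gene, with -0.58 ± 0.32 (limma adjusted p = 1). Pfkfb4 stood at 5.27, 4.87 and 6.31 FPKM in HFD+2% DSS colons and 5.68, 5.90 and 3.29 FPKM in CD+2% DSS colons, against 3.82, 4.45 and 5.47 FPKM in HFD colons and 6.46, 6.66 and 5.51 FPKM in CD colons. Gpi1 stood at 63.8, 82.6 and 85.5 FPKM in HFD+2% DSS colons and 87.2, 148 and 91.5 FPKM in CD+2% DSS colons, against 77.4, 58.1 and 82.4 FPKM in HFD colons and 64.1, 65.8 and 68.5 FPKM in CD colons. For Gpi1 the CD+2% DSS library with 148 FPKM was the highest, and the CD+2% DSS libraries lay above all others. For Pfkfb4 the DSS libraries of both diets overlapped each other, and the CD libraries lay above the HFD libraries.

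Ndrg1, a stress-responsive gene induced by hypoxia and also tied to epithelial differentiation, was the member whose values differed most between groups in opposite directions. It stood at 17.7, 30.9 and 18.4 FPKM in HFD+2% DSS colons and 31.1, 77.1 and 46.0 FPKM in CD+2% DSS colons, against 29.3, 30.2 and 46.3 FPKM in HFD colons and 24.1, 15.6 and 16.3 FPKM in CD colons. The CD+2% DSS libraries lay above all CD libraries and above all HFD+2% DSS libraries, and the HFD libraries lay above all CD libraries. The interaction was -1.99 ± 0.47 on the log2 scale (limma unadjusted p = 0.00134, adjusted p = 0.56). The DSS effect was -0.65 ± 0.33 under HFD (limma adjusted p = 0.419) and 1.34 ± 0.33 under CD (limma adjusted p = 0.136), so that no single comparison was called for this gene.

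Libraries also differed in the posterior genes Hoxa13, Hoxb13 and Hoxd13, which mark the anal end of the gut. Their summed level was 46.6, 52.1 and 92.8 FPKM in HFD+2% DSS colons and 40.5, 1.62 and 10.2 FPKM in CD+2% DSS colons, against 7.04, 16.3 and 34.7 FPKM in HFD colons and 58.8, 111 and 38.3 FPKM in CD colons. The groups with the higher Ndrg1, CD+2% DSS and HFD, had the lower mean Hox sums. Within CD+2% DSS colons Ndrg1 was also higher where the Hox sum was lower. Within CD colons there was no such order. The highest Hox sum, 111 FPKM, came with the lowest Ndrg1 level, 15.6 FPKM, but the lowest, 38.3 FPKM, came with 16.3 FPKM. The highest Ndrg1 level there, 24.1 FPKM, came with the middle Hox sum, 58.8 FPKM. Within HFD colons Ndrg1 was higher where the Hox sum was higher, and the library with the highest Hox sum, 34.7 FPKM, had the highest Ndrg1 level, 46.3 FPKM. Within HFD+2% DSS colons the highest Ndrg1 level, 30.9 FPKM, came with the middle Hox sum. The Hox level and the smooth muscle level differed between the groups, so their parts cannot be told apart from those of diet and DSS. With the Hox level as a covariate the interaction was -1.45 (limma adjusted p = 1), and with the smooth muscle level as a covariate it was also -1.45 (limma adjusted p = 0.997).

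**Figure D4:**
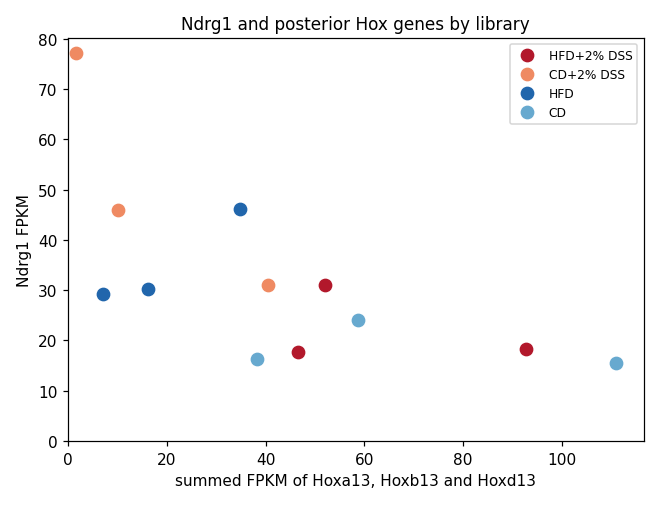
Ndrg1 level (FPKM, vertical axis) against the summed level of Hoxa13, Hoxb13 and Hoxd13 (FPKM, horizontal axis) in the 12 libraries, coloured by group. The library with the highest Ndrg1 level, CD+2% DSS replicate 2 at 77.1 FPKM, has the lowest Hox sum, 1.62 FPKM.

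The diet comparisons asked whether HFD changed these genes with or without DSS. No member was called by limma in either one, nor was any other gene (0% of all genes called). In DSS-treated colons 25 of 32 members were lower in HFD+2% DSS colons than in CD+2% DSS colons and 7 were higher (45.4% of all genes higher), with a median log2 fold change of -0.15 against -0.026 for all genes. At an unadjusted p under 0.05, 4 members were lower and 0 higher, where 3.84% of all genes were lower and 2.77% higher. The 4 were Ndrg1 at -1.11 ± 0.33 (limma adjusted p = 0.703), Slc16a3 at -0.78 ± 0.30 (limma adjusted p = 0.735), Slc2a1 at -0.62 ± 0.24 (limma adjusted p = 0.736) and Pfkl, the liver-type phosphofructokinase, at -0.58 ± 0.23 (limma adjusted p = 0.739). Slc2a1 stood at 46.7, 43.7 and 26.8 FPKM in HFD+2% DSS colons and 44.9, 74.5 and 60.8 FPKM in CD+2% DSS colons, against 34.5, 25.1 and 33.2 FPKM in HFD colons and 33.9, 33.3 and 35.5 FPKM in CD colons. Its DSS groups overlapped, with the lowest HFD+2% DSS value inside the range of libraries without DSS. The HFD+2% DSS libraries lay wholly below the CD+2% DSS libraries for 4 members, Ndrg1, P4ha1, Gpi1 and Pfkl, against 5.85% of all genes, and wholly above for 0, against 3.6%. In the same comparison 6 of 6 smooth muscle markers had a log2 fold change above 0 (median 0.88) and 1 of 9 colon epithelial markers did (median -0.27), with 0 called. With the smooth muscle level as a covariate 16 of the 32 members were higher and the median was 0.0012. The smooth muscle sum averaged 1690 FPKM in HFD+2% DSS colons and 852 FPKM in CD+2% DSS colons. Its part therefore cannot be told apart from that of diet. Without HFD+2% DSS replicate 3, 13 members were higher (median -0.089), and without CD+2% DSS replicate 2, 12 were higher (median -0.057).

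Without DSS, 13 members were higher in HFD colons than in CD colons and 19 lower (45.9% of all genes higher), and the median log2 fold change was -0.036. Without HFD replicate 2, 16 were higher and the median was 0.030. Ndrg1, at 0.88 ± 0.33 (limma adjusted p = 1), was the 1 member past an unadjusted p of 0.05, where 1.77% of all genes were higher and 2.38% lower. Next came Hk1, the constitutive hexokinase, at -0.35 ± 0.17, and Pfkfb4 at -0.38 ± 0.19 (limma adjusted p = 1 for both). Hk1 stood at 23.6, 23.3 and 27.3 FPKM in HFD+2% DSS colons and 36.6, 26.6 and 24.3 FPKM in CD+2% DSS colons, against 16.2, 16.7 and 21.4 FPKM in HFD colons and 24.7, 22.1 and 23.1 FPKM in CD colons. The HFD libraries of Hk1 were the 3 lowest of the 12. HFD libraries lay wholly above CD libraries for 2 members, Ndrg1 and Pfkfb3, against 4.61% of all genes, and wholly below for 5, Egln1, Adm, Slc16a3, Hk1 and Pfkfb4, against 5.02%.

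Averaged over DSS, 28 of the 32 members were lower with HFD and 4 higher (44.1% of all genes higher), with a median log2 fold change of -0.11 against -0.021 for all genes. None was called by limma (0% of all genes), and 3 were lower at an unadjusted p under 0.05, where 2.9% of all genes were lower and 1.77% higher. These were Slc16a3 at -0.56 ± 0.21 (limma adjusted p = 0.909), Hk1 at -0.28 ± 0.12 and Slc2a1 at -0.39 ± 0.17 (limma adjusted p = 1 for both). Slc16a3 and Slc2a1 are the carriers at the exit and entry of glycolysis. Over the same contrast 8 of 9 colon epithelial markers had a log2 fold change below 0, and 6 of 6 smooth muscle and 5 of 5 tested adipocyte markers one above 0, with 0 called in each list. With the smooth muscle level as a covariate 12 members were higher and the median was -0.042, and without CD+2% DSS replicate 2 these values were 11 and -0.051. The smooth muscle level differed between the groups, so its part cannot be told apart from that of diet. The part of the epithelial and adipocyte markers was not tested. These diet comparisons share libraries with the DSS comparisons and with each other, so their values are not separate evidence.

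Because FPKM is per length, the members that encode alternative forms of an enzyme or factor could be set against each other within a library. Of 8 such shares tested with an exact 2-sided permutation test of DSS within diets (400 arrangements, smallest possible p = 0.005), 1 was called after Benjamini-Hochberg adjustment. Egln3 made up 58.9 ± 6.15% of the sum of Egln1 and Egln3 in HFD+2% DSS colons and 59.6 ± 7.40% in CD+2% DSS colons, against 44.0 ± 2.78% in HFD colons and 46.2 ± 2.76% in CD colons (SD, n = 3 each). Over both diets the share was 51.5% to 66.1% in the 6 DSS libraries and 41.0% to 49.0% in the 6 others, with no overlap. The mean difference was 14.2 percentage points (exact permutation p = 0.005, adjusted p = 0.04). Without HFD replicate 2 or 3 or any 1 of the CD replicates the exact permutation adjusted p was 0.08, from a p of 0.01 over 200 arrangements, while the difference was 13.4 to 14.9 points. The share of Hk2 in the hexokinase pair was 8.86 points higher with DSS (exact permutation adjusted p = 0.253), and that of Pfkfb4 in the PFKFB pair was 14.2 points lower, a difference of -14.2 (exact permutation adjusted p = 0.253). For the phosphofructokinase subunits the differences were 3.12 points for Pfkp, 0.114 for Pfkl and -3.23 for Pfkm, with exact permutation adjusted p-values of 0.31 or more. The share of Epas1 in the sum of Hif1a and Epas1 differed by -5.43 points (exact permutation adjusted p = 0.707) and that of P4ha2 in the P4ha pair by -0.279 points (exact permutation adjusted p = 0.975).

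**Figure D5:**
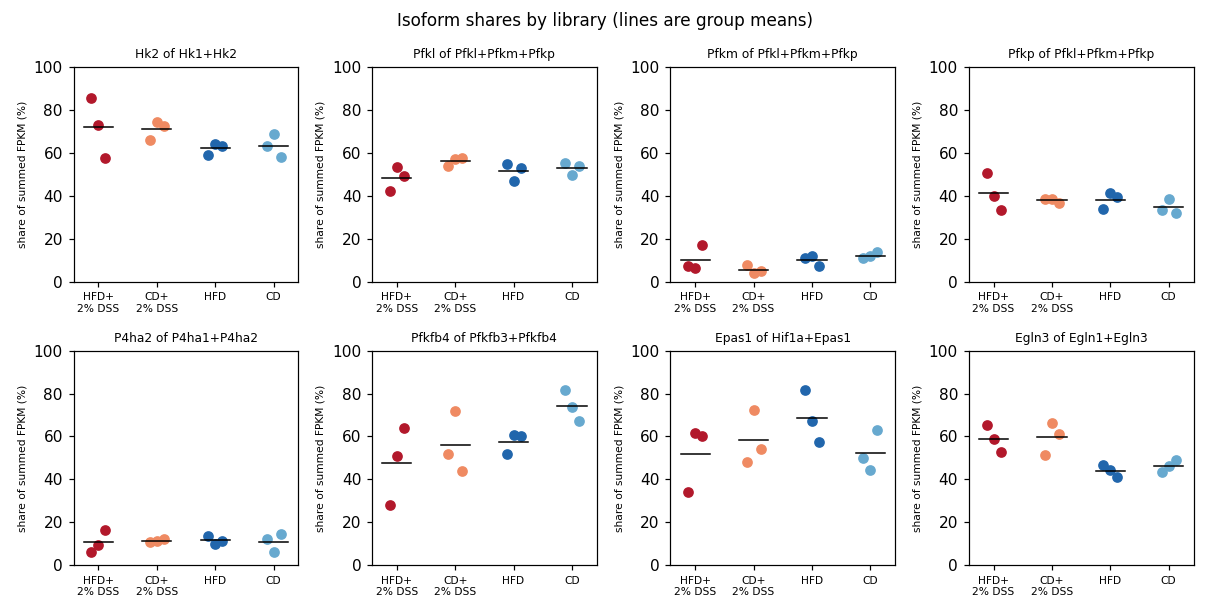
Share of each gene in the summed FPKM of its enzyme forms (vertical axes, 0 to 100%) in the 3 libraries of each group (points), with group means as lines. The Egln3 share is 51.5% or more in every DSS library and 49.0% or less in every other library.

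Related genes outside the 32 were described from lists of the same pathways. Of 32 tested genes from the wider HIF pathway, 3 rose with DSS averaged over diets and 0 fell (1.87% and 0.875% of all genes). Log2 fold changes were above 0 for 20 (50.9% of all genes), with a median of 0.11 against 0.0075 for all genes. At an unadjusted limma p under 0.05, 8 were higher (13% of all genes) and 2 lower (10.5%). Under CD 23 were above 0 (median 0.24), and under HFD 16 were (median -0.00056). Ier3, an immediate early gene of stressed cells, had 13.7 ± 2.18 FPKM in HFD+2% DSS colons and 18.4 ± 6.21 FPKM in CD+2% DSS colons, against 6.86 ± 1.93 FPKM in HFD colons and 5.09 ± 2.07 FPKM in CD colons, a log2 fold change of 1.31 ± 0.21 (limma adjusted p = 0.0122). Car9, a carbonic anhydrase widely used as a hypoxia marker, had 27.9 ± 4.14 FPKM in HFD+2% DSS colons and 35.2 ± 5.78 FPKM in CD+2% DSS colons, against 16.5 ± 4.24 FPKM in HFD colons and 19.6 ± 2.35 FPKM in CD colons, a log2 fold change of 0.78 ± 0.15 (limma adjusted p = 0.0205). For both genes the DSS means exceeded the means without DSS in each diet. Ier3 was called in 21 of 21 alternatives and Car9 in 19, with the call lost without CD replicate 2 (adjusted p = 0.059).

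Angptl4, an inhibitor of lipoprotein lipase that both HIF and fatty acid receptors are known to induce, rose with a log2 fold change of 1.01 ± 0.22 (limma adjusted p = 0.0391). It had 8.38 ± 1.57 FPKM in HFD+2% DSS colons and 4.27 ± 1.10 FPKM in CD+2% DSS colons, against 5.49 ± 2.50 FPKM in HFD colons and 1.01 ± 0.598 FPKM in CD colons. It was called in 9 of 21 alternatives and lost when any 1 of 9 libraries was left out (adjusted p to 0.111), without HFD+2% DSS replicate 1, HFD replicate 3 and CD replicate 3 being the exceptions. Its HFD effect averaged over DSS was 1.24 ± 0.22 (limma adjusted p = 0.329), opposite in sign to that of 28 of the 32 members. The pentose phosphate pathway, which branches off after hexokinase, had 2 of 7 genes called higher, against 1.87% of all genes. These were Pgd at 0.72 ± 0.13 (limma adjusted p = 0.0204) and Rpia at 0.39 ± 0.08 (limma adjusted p = 0.0377). Pgd was called in 17 of 21 alternatives and lost without HFD replicate 2, CD replicate 1 or CD replicate 2 (adjusted p to 0.071). Rpia was called in 7 of 21 and, with a library left out, kept its call without HFD replicate 3 or CD replicate 3 alone (adjusted p to 0.15). Of 23 tested glycolytic genes outside the set, 1 was called higher (1.87% of all genes), Bpgm at 0.46 ± 0.10 (limma adjusted p = 0.0403). Bpgm was called in 7 of 21 alternatives and, with a library left out, kept its call without HFD+2% DSS replicate 3 or HFD replicate 3 alone (adjusted p to 0.126). Among 6 tested gluconeogenic genes and 7 HIF-dependent barrier genes, 0 were called by limma. At an unadjusted p under 0.05, 1 and 2 of them were higher (13% of all genes) and 1 and 0 lower (10.5%). Their smallest adjusted p-values belonged to the fructose bisphosphatase gene Fbp2 (0.46 ± 0.15, limma adjusted p = 0.112) and the adenosine receptor gene Adora2b (0.45 ± 0.13, limma adjusted p = 0.0886). Next to these, the pyruvate kinase gene Pklr had 0.42 ± 0.13 (limma adjusted p = 0.0937), the mucosal repair peptide gene Tff3 had 0.77 ± 0.30 (limma adjusted p = 0.163) and the gluconeogenic gene Pck1 had -0.75 ± 0.29 (limma adjusted p = 0.161).

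With HFD averaged over DSS, limma called 0 genes in these 5 lists. The phosphoglycerate mutase gene Pgam2 had a log2 fold change of -0.49 ± 0.19, and Pdk4, a kinase that restrains pyruvate oxidation, had one of 0.78 ± 0.32. Adora2b had -0.33 ± 0.13, the creatine kinase gene Ckm 0.57 ± 0.34, Pck1 -0.47 ± 0.29, Pck2 -0.18 ± 0.13, and the pentose phosphate genes Tkt and G6pdx -0.23 ± 0.13 and -0.15 ± 0.15. Their limma adjusted p-values were 0.938 or more.

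Markers of other cell types were read in the same libraries. Of 8 neutrophil markers 4 could be tested, all 4 had a log2 fold change above 0, and 1 was called (1.87% of all genes called higher). The summed level of the 8 was 98.7 to 562 FPKM in HFD+2% DSS colons and 38.5 to 106 FPKM in CD+2% DSS colons, against 3.20 to 59.7 FPKM in HFD colons and 23.6 to 166 FPKM in CD colons, most of it from Ly6g. Ly6g did not follow the other markers. In CD replicate 2 it stood at 165 FPKM, with S100a8 at 0.183 FPKM and S100a9 at 0, so the sum is a poor measure of neutrophils here. Of the granule markers, Ngp was at 0 in all 12 libraries. Of 9 colon epithelial markers, 7 had a log2 fold change above 0 with DSS averaged over diets (median 0.25) and 0 were called, and 4 of 5 T and NK cell markers did (median 0.24), again with 0 called. Of 6 smooth muscle markers, 1 had a log2 fold change above 0 with DSS and 0 were called, and their sum was 1037 to 2953 FPKM in HFD+2% DSS colons and 622 to 1187 FPKM in CD+2% DSS colons, against 744 to 1726 FPKM in HFD colons and 1099 to 1401 FPKM in CD colons. The part of neutrophils, epithelium or T and NK cells in the DSS result of the 32 members was not tested. With the smooth muscle level as a covariate 5 members were called, and with the Hox level 3. Both levels differed between the groups, so their parts cannot be told apart from those of diet and DSS.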

How the data were processed

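Colon RNA of 12 samples was sequenced; the labels' protocols name the SMARTER mRNA-Seq kit for library construction. The authors deposited 1 table of FPKM values. The genome build was mm10, per the submitters' processing notes; its aligner, counting tool and annotation are not given. Symbols came from GENCODE M21, which named 54495 of the 54532 identifiers. Low values stepped in whole multiples, and 97.5% to 97.8% of values per library came out as whole fragments within 0.1 fragment, giving 14700000 to 17900000 fragments on genes. The library size that gave whole fragments differed from the fragments on genes. It was 13500000 against 16000000 in CD+2% DSS replicate 2 and 19100000 against 17900000 in HFD+2% DSS replicate 3. Each library had a median ratio of 1.009 to the geometric mean over genes, so comparisons rest on a scaling present in the values as deposited.

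The 14179 genes that reached 1 FPKM in 3 or more samples were fitted as log2(FPKM + 1) with limma 3.58.1 in R 4.3.3 (4 group means, trend, no block), and p-values were adjusted by Benjamini-Hochberg over all of them. The code was tested on simulated data. Isoform shares were compared by an exact permutation test. Promoters were RefSeq windows of GRCm38.p6, in which the letters ACGTG and GCGTG were searched on both strands. Any member could be named; values in every library were given for called members, for the 5 members with the smallest p for DSS averaged over diets and for the 3 with the smallest p in each other comparison. Hif1a was given in full because it is the factor itself, outside this rule. Of the related lists, called genes and the 2 with the smallest p in each list were named, except 1 gene that is not reported here. Alternatives were another pseudocount, other filters, rescaling to TPM, voom on recovered fragments, no trend, 2 covariates, a replicate block, fits of the compared groups alone and leaving out each sample. The members, lists and tests were chosen with earlier results of these data known.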

Additional observations from a re-analysis of the deposited data

Results flagged for a closer look

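Ndrg1 was picked by a rule, that its HFD and CD libraries did not overlap, in opposite directions with and without DSS. Its log2 fold change with HFD was -1.11 in DSS-treated colons (HFD+2% DSS over CD+2% DSS) and 0.88 without DSS (HFD over CD). The lack of overlap and the opposite signs follow from the rule and are no further support. Over all genes, HFD+2% DSS libraries lay wholly below CD+2% DSS libraries for 5.85%, and HFD libraries wholly above CD libraries for 4.61%. The difference between the 2 HFD effects of Ndrg1, taken from the same values, was the interaction, -1.99 ± 0.47 on the log2 scale (limma adjusted p = 0.56 over all genes).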

How the results depend on the processing

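Of the members called with DSS averaged over diets, Slc16a3 was called in 20 of 20 alternatives in which it was tested (adjusted p 0.0034 to 0.0467), Pfkp in 16 of 21 (to 0.0889), Egln3 in 12 of 21 (to 0.0946) and Eno1 in 7 of 21 (to 0.124). The count of 4 became 2 with no filter, and 1 to 4 when a library was left out. It was 1, Slc16a3, without HFD+2% DSS replicate 1, HFD replicate 2, CD replicate 1 or CD replicate 2, and 2 without CD+2% DSS replicate 3. The replicate block left 1, Slc16a3; the deviations of same-numbered libraries from their group means had correlations of -0.462 to 0.204, so the numbers were not taken as pairs. Under CD the count was 0 to 1 with a library left out, the 1 being Slc16a3 without CD+2% DSS replicate 1. In the other comparisons 0 members were called under every alternative run, voom on fragments included. All genes called numbered 114 (without HFD replicate 2) to 479 for DSS averaged over diets (main value 389), 0 to 33 for DSS under CD (12), 1 to 78 for DSS under HFD (48), 0 to 2 for HFD comparisons and 0 to 3 for the interaction. Isoform shares called went from 1 to 0 under the replicate block (exact permutation adjusted p = 0.25 for Egln3, the smallest a single share can reach over 64 arrangements and 8 shares, at an unchanged difference of 14.2 points) and ranged from 0 to 4 with a library left out, with 0 without HFD replicate 2 or 3 or any CD replicate, and 4 without HFD+2% DSS replicate 3. The 2 shares nearest 0 changed sign with the library left out, from -1.16 to 1.65 points for Pfkl (6 of 12 reversed) and from -1.75 to 0.849 points for P4ha2 (5 of 12 reversed). The cause of these changes was not tested. The replicate block also took the DSS call from Car9 and Pgd. Depth limits most the members with the fewest fragments, which are short genes of low FPKM such as Adm and Ankrd37.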

Other observations

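The highest and lowest values of the members were unevenly spread over the libraries. CD+2% DSS replicate 2 held the highest value of 11 of the 32 members and HFD+2% DSS replicate 1 that of 9, while HFD replicate 2 held the lowest value of 11. CD+2% DSS replicate 2 also had the highest summed colon epithelial markers of the DSS libraries, 17845 FPKM, of which Car1 gave 10239 FPKM. It had the lowest summed smooth muscle markers of all 12, 622 FPKM, and the lowest posterior Hox sum, 1.62 FPKM. In HFD+2% DSS replicate 1 the neutrophil markers S100a8 and S100a9 stood at 22.3 and 16.0 FPKM, against 1.89 to 3.49 and 2.91 to 5.18 FPKM in the other HFD+2% DSS libraries. It was not the only such library, as CD+2% DSS replicate 3 had 8.50 and 16.6 FPKM. Csf3r, Cxcr2 and Retnlg stood at 2.55, 0.462 and 2.60 FPKM in CD+2% DSS replicate 3. In HFD+2% DSS replicate 1 these 3 were lower, at 1.71, 0.151 and 0.885 FPKM.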
